A study of Mus musculus with 12 samples.

Results

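Hox genes encode homeodomain transcription factors and lie in the mouse in 4 clusters, HoxA, HoxB, HoxC and HoxD, on different chromosomes. The members were found by their symbols, Hox followed by the cluster letter and a paralog number from 1 to 13. They came to 39 of the 24470 genes in the table, with 11 in HoxA, 10 in HoxB, 9 in HoxC and 9 in HoxD. RNA-seq was performed on intact mouse testes collected at E14.5, in 6 control pools of genotype Nr2f2 f/f and 6 cKO pools of genotype Wt1 CreER x Nr2f2 f/f, with 3 testes in each pool. Both groups carried the floxed allele of Nr2f2, a nuclear receptor of interstitial cells, and only the cKO embryos carried the Cre, which is driven by the Wt1 locus and activated by tamoxifen. The pregnant females were injected with tamoxifen earlier in gestation. The Cre allele and the deletion of Nr2f2 differ together between the groups, so their effects cannot be told apart in this design. Wt1 is expressed in several somatic cell types of the gonad, so deletion is not limited to a single cell type, and the study describes it as incomplete in the interstitium. The labels do not say which litters the pools came from, so p-values measure the spread between these pools. The question put to the data was how the RNA of each Hox cluster and each paralog position differed between control and cKO testes.

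Genes with the same number in different clusters are paralogs, descended from a common ancestral gene. Along each cluster, genes with low numbers are active toward the head of the embryo and genes with high numbers toward the tail, an arrangement known as collinearity. Hox proteins bind DNA with cofactors of the TALE class (Pbx, Meis and Pknox), and Polycomb and Trithorax proteins hold clusters silent or active. In the urogenital tract, posterior Hox genes pattern the ducts and the gubernaculum, and loss of Hoxa10 or Hoxa11 in mice is known for undescended testes.

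Total counts ranged from 7044531 to 39965574 in control pools and from 7322959 to 59404778 in cKO pools. Levels are given as CPM, the count of a gene relative to the scaled library size, or as RPKM, which divides CPM by exon length and allows genes to be compared with each other. Nr2f2 itself ranged from 163 to 186 CPM in control and from 50.2 to 119 CPM in cKO pools, so the targeted gene was lower in all 6 cKO pools than in any control pool. Xist, a transcript of the inactive X chromosome that testis RNA is not expected to hold at high level, exceeded 100 CPM in 4 pools (control replicate 1 with cKO replicates 3, 5 and 6) and lay between 5.15 and 7.68 CPM in the other 8 pools. The same 4 pools held more RNA of ovarian markers. Foxl2, a transcription factor of ovarian granulosa cells, was at 14.6 to 47.2 CPM in them and at 0.230 to 1.30 CPM in the other 8, and Fst was at 19.7 to 65.7 and 2.82 to 5.39 CPM. Bmp2 likewise did not overlap, at 16.3 to 23.8 and 5.43 to 13.5 CPM, while Wnt4 did, at 44.9 to 110.0 and 26.0 to 63.3 CPM. The part of this RNA in the results on all 12 pools was not tested beyond those values. The key results are therefore also given for those 8 pools. Of all 15572 genes tested by edgeR, 756 were lower in cKO (4.85%) and 510 were higher (3.28%) at an adjusted p under 0.05, and every adjusted p below is from this test unless DESeq2 is named. All values below come from bulk RNA, in which fewer cells of a type and less RNA per cell cannot be told apart.

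The upstream sequences of 3 HoxD genes are shown because 2 of them, Hoxd8 and Hoxd10, fell in cKO testes, while Hoxd4 lies in the same cluster and did not pass the test. Each is the 250 bases before the RefSeq start of the gene on GRCm38.p6 (mm10), plus strand of chromosome 2. The capitals mark AGGTCA or its reverse complement TGACCT, the half-site that nuclear receptors of the Nr2f2 class recognise.
Hoxd8, chr2:74704365-74704614: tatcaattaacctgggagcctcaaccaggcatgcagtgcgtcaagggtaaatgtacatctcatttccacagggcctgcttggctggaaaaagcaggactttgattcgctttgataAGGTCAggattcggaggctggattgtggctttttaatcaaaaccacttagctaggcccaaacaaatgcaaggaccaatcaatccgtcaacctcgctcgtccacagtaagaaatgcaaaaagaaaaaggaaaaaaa
Hoxd10, chr2:74691641-74691890: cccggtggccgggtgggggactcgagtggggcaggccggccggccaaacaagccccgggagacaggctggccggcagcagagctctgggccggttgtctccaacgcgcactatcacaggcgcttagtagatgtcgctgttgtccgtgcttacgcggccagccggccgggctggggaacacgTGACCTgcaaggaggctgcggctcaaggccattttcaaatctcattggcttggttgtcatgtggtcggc
Hoxd4, chr2:74721728-74721977: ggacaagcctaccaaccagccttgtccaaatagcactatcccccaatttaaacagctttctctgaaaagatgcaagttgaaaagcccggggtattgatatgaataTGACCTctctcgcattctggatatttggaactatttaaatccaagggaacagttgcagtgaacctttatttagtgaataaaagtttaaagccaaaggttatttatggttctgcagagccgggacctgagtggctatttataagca

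The match began 135 bases before the start of Hoxd8, 69 bases before that of Hoxd10 and 145 bases before that of Hoxd4. The windows also differed in composition, with 44.4% G and C before Hoxd8, 65.6% before Hoxd10 and 40.4% before Hoxd4. An upstream entry was found for 22 of the 39 members, and 6 of these 22 held the motif on either strand (Hoxb4, Hoxc4, Hoxd3, Hoxd4, Hoxd8 and Hoxd10), against 14.0% of all 32851 windows of the same length. The 3 genes with an entry that fell in cKO all held it, and so did 3 of the 19 others. Hoxc8 and Hoxc10, which also fell, had no entry. So few genes cannot show whether the motif goes with the fall. Hoxd3 and Hoxd4, which held the motif, did not pass the test, and a match of 6 letters is a description of the sequence and not a site of binding.

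In control testes, HoxD was the most abundant cluster per length. It made up from 60.6% to 67.7% of the summed RPKM of all members in control pools, while HoxC made up 21.2% to 25.8%, HoxB 5.85% to 7.68% and HoxA 4.75% to 6.96%. The ranges of HoxD, HoxC and the other 2 clusters did not overlap, whereas those of HoxA and HoxB did. In cKO pools the shares were 58.2% to 65.9% for HoxD, 20.5% to 26.7% for HoxC, 7.50% to 9.75% for HoxB and 4.31% to 7.57% for HoxA. Each cluster thus had overlapping shares over all 12 pools, although for HoxB the overlap came from control replicate 1 alone. Among the pools with low Xist the HoxB shares were apart, at 5.85% to 6.43% in control and 7.57% to 8.39% in cKO pools, while those of the other clusters overlapped.

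Hoxd9 had the highest level, at 33.0 ± 3.71 RPKM in control testes (SD, n = 6). It was followed by Hoxd8 at 24.1 ± 4.01, Hoxd10 at 17.2 ± 2.69, Hoxc6, which ranged from 12.8 to 17.2, and Hoxd4 at 14.2 ± 1.69 RPKM. In this order each gene overlapped its neighbour across control pools. The range of Hoxd4 was separate from that of Hoxd3 at 9.69 ± 1.53 RPKM, which overlapped that of Hoxc8 at 9.34 ± 1.63 RPKM. Hoxc4 at 6.08 ± 0.672 RPKM was separate from both of its neighbours. The highest member of HoxB was Hoxb9 at 4.31 ± 0.580 RPKM and the highest of HoxA was Hoxa5 at 1.87 ± 0.508 RPKM. Genes at positions 8 to 10 of HoxD therefore led the order, and no HoxA or HoxB gene was among the first 8.

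**Figure D1:**
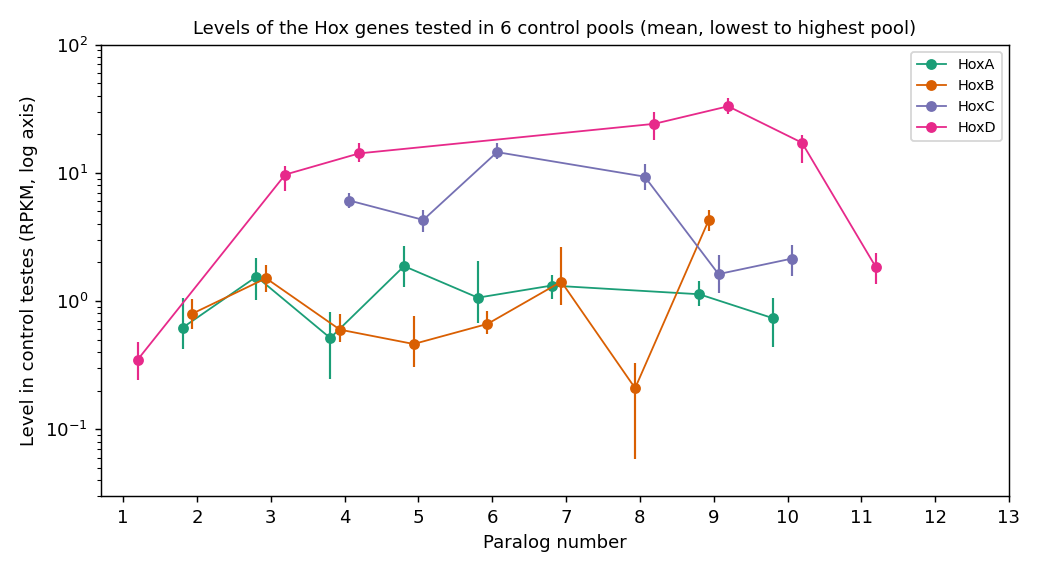
Level of the 29 Hox genes tested in control testes in RPKM (log axis) against its paralog number, with points for the mean of 6 control pools, vertical bars from the lowest to the highest pool and a line for each cluster. Members removed by the filter on low counts are not drawn. HoxD lies above the other clusters from paralog 8 to 10, with Hoxd9 at 33.0 RPKM.

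Toward the posterior end of the clusters the levels were low. The filter on low counts removed 10 members, of which 8 were posterior (Hoxa11, Hoxa13, Hoxb13, Hoxc11, Hoxc12, Hoxc13, Hoxd12 and Hoxd13). Counts of the members removed, summed over all 12 pools, had a median of 29 out of 320037127 counts, and no comparison was made for them. Hoxc12 had 0 counts in every pool, which allows up to 0.00937 CPM over all pools (3 counts, counting error only). The 29 members that passed the filter had between 199 and 19133 counts in total. Both Hoxa11 and Hoxa13, which pattern the lower ducts and the genital tubercle, were among those not tested.

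Among the 29 members tested, 5 fell in cKO testes, namely Hoxc4, Hoxc8, Hoxc10, Hoxd8 and Hoxd10, and 0 rose. The 5 are 17.2% of the members tested, beside 4.85% of all genes. The count ran from 2 to 8 with single pools left out and from 1 to 8 under other settings. The shares of all genes called lower in those fits are given in the closing section. At an unadjusted p under 0.05 by the same edgeR test, 10 members were lower (beside 13.2% of all genes tested) and 0 were higher (beside 12.1%). By DESeq2, which tested 38 members, 8 were lower (beside 4.93% of the 21123 genes it tested) and 0 higher (beside 4.16%). The 8 were the same 5 genes with Hoxc9, Hoxd9 and Hoxd11. The log2 fold change was below 0 in 18 members and above 0 in 11, with a median of -0.10, against 0.00 over all genes tested, where 49.4% were below 0. With single pools left out that median ran from -0.21 to -0.01, and among the pools with low Xist it was -0.23, with 21 of 29 members below 0. The cKO pools all lay below the control pools for 1 member, Hoxc10, beside 3.13% of all genes, and all lay above for 0 members, beside 2.39%. A single gene of 29 is a share close to that background.

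**Figure D2:**
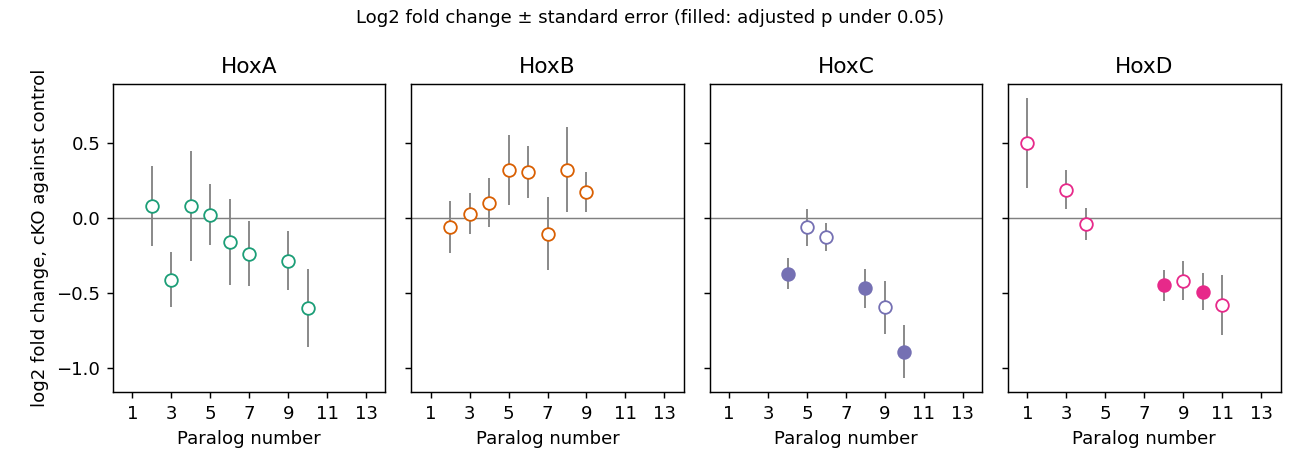
Log2 fold change of cKO against control (points) with its standard error (bars) against paralog number, in a panel for each cluster, for the 29 Hox genes tested. Filled points have an adjusted p under 0.05 (edgeR). In HoxA, HoxC and HoxD the points at paralogs 8 to 11 lie below 0, while 6 of the 8 HoxB points lie above 0.

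The clusters differed in their counts, which stand beside 4.85% of all genes called lower and 49.4% with a negative fold change. The calls depended on the fit. Without control replicate 3, for example, only Hoxc10 and Hoxd8 stayed called, and with the replicate number as a block only Hoxc10 did. In HoxC, 3 of 6 genes tested fell and all 6 had a negative fold change, with a median of -0.42. In HoxD, 2 of 7 fell, 5 were negative and the median was -0.42. In HoxA, 0 of 8 passed the test, 5 were negative and the median was -0.20. HoxB had 0 of 8 past the test, 6 positive fold changes and a median of 0.14. The medians of HoxA, HoxB and HoxD depended on the pools used. Among the 8 pools with low Xist they were -0.38 for HoxA (7 of 8 negative), 0.03 for HoxB (4 of 8 negative), -0.42 for HoxC (6 of 6 negative) and -0.23 for HoxD (4 of 7 negative), so that HoxA lay below HoxD. The HoxA median was also -0.07 without cKO replicate 1 and -0.11 without control replicate 6. Neighbouring genes in a cluster share regulation, so these counts are descriptions and were not tested against each other.

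Position along the cluster divided the members in another way, with calls again to be read beside 4.85% of all genes called lower. Anterior genes (paralogs 1 to 3) had a median of 0.06 over 6 genes tested with 0 calls, and central genes (paralogs 4 to 8) had a median of -0.06 over 15 with 3 calls. Among posterior genes (paralogs 9 to 13), 8 were tested, 7 were negative, 2 fell and the median was -0.53. When HoxB was set aside, all 9 genes tested at paralogs 8 to 11 had a negative fold change, from -0.89 to -0.28, and 4 of them fell. That grouping was chosen after the values had been seen. All 9 were also negative in the pools with low Xist, from -0.97 to -0.23, where the median was -0.05 for anterior, -0.17 for central and -0.48 for posterior genes. Those pools are a part of the pools in which the grouping was seen, so their signs are no separate support for it. Paralog group 10 had negative values in all 3 members (Hoxa10, Hoxc10 and Hoxd10), of which 2 fell, and paralog group 8 fell in HoxC and HoxD while Hoxb8 had a log2 fold change of 0.32.

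Among the posterior genes, Hoxc10 (chr15:102966796-102971898), a gene of lumbar and hindlimb patterning, had the largest fold change of the members. It ranged from 2.98 to 5.18 CPM in control pools (median 4.10) and from 1.48 to 2.84 CPM in cKO pools (median 2.25). The groups did not overlap, and the pool nearest to the cKO range was control replicate 1. Its log2 fold change was -0.89 with a standard error of 0.18 (adjusted p = 0.00683). In the 8 pools with low Xist it was -0.97 with a standard error of 0.20 (adjusted p = 0.0176), and the call held whichever single pool was left out.

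Hoxd10 (chr2:74691891-74695106), which acts with Hoxd9 in patterning of the hindlimb and its motor neurons, ranged from 21.7 to 35.9 CPM in control pools (median 32.5) and from 19.1 to 28.7 CPM in cKO pools (median 21.8). Control replicate 1 was the lowest control pool and cKO replicate 2 the highest cKO pool, and these made the groups overlap. The log2 fold change was -0.49 with a standard error of 0.12 (adjusted p = 0.0268). With single pools left out, the gene stayed past the threshold in 2 of 12 fits, those without control replicate 1 or cKO replicate 2. In the other 10 fits the adjusted p reached up to 0.0628, with fold changes no closer to 0 than -0.44. Among the 8 pools with low Xist, the 5 control pools lay between 32.0 and 35.9 CPM and the 3 cKO pools between 22.4 and 28.7 CPM (log2 fold change -0.44, adjusted p = 0.0259).

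Hoxd9 (chr2:74697763-74700208), the most abundant member, did not pass the test. It ranged from 59.9 to 80.7 CPM in control pools (median 68.7) and from 35.7 to 66.3 CPM in cKO pools (median 52.5), and 5 of 6 cKO pools lay below every control pool. Its log2 fold change was -0.42 with a standard error of 0.13 (adjusted p = 0.0620 by edgeR and 0.0262 by DESeq2). The 3 lowest cKO pools were those with high Xist, and in the 8 pools with low Xist the fold change was -0.23 (adjusted p = 0.155). Hoxc9, a gene of thoracic patterning, had 1.99 to 3.90 CPM in control and 1.36 to 2.02 CPM in cKO pools, with a log2 fold change of -0.59 and a standard error of 0.18 (adjusted p = 0.0558 by edgeR and 0.0350 by DESeq2).

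Hoxd11, a gene of limb and kidney patterning, gave 5.68 to 9.95 CPM in control and 3.43 to 7.01 CPM in cKO pools (log2 fold change -0.58 ± 0.20 SE, adjusted p = 0.0910 by edgeR and 0.0427 by DESeq2). Hoxa10, one of the genes tied to testis descent, gave 1.38 to 3.29 CPM in control and 1.05 to 2.04 CPM in cKO pools (log2 fold change -0.59 ± 0.26 SE, adjusted p = 0.169). In both genes the groups overlapped, and neither passed the threshold by edgeR. Without control replicate 1, where 10.5% of all genes were called lower, Hoxc9 (adjusted p = 0.0188), Hoxd9 (0.0289) and Hoxd11 (0.0322) passed it. Hoxc9 also passed it without control replicate 2 (3.45% of all genes called lower), and Hoxd9 without cKO replicate 1 (3.39%). For Hoxa9 the log2 fold change was -0.28 ± 0.19 (SE), and -0.44 without cKO replicate 2. The remaining posterior gene tested, Hoxb9, was the exception in sign, at 9.11 to 13.2 CPM across control pools and 8.82 to 15.5 CPM across cKO pools. Its log2 fold change was 0.17, with an approximate 95% interval from -0.09 to 0.43.

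Among the central genes, Hoxd8 (chr2:74704615-74707933) ranged from 49.2 to 82.1 CPM in control pools (median 66.1) and from 42.8 to 52.3 CPM in cKO pools (median 49.0). Only control replicate 1 lay within the cKO range. The log2 fold change was -0.45 with a standard error of 0.10 (adjusted p = 0.0168), and the call held whichever single pool was left out. It was lost with the replicate number as a block (log2 fold change -0.43, adjusted p = 0.0559). Without the shallowest pool of each group it was lost as well (-0.39, adjusted p = 0.0940). In the 8 pools with low Xist the control pools lay between 61.7 and 82.1 CPM and the cKO pools between 51.0 and 52.3 CPM, and the gene stayed past the threshold (log2 fold change -0.42, adjusted p = 0.0287).

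Hoxc8 (chr15:102990539-102994254), a thoracic gene and a paralog of Hoxd8, ranged from 13.7 to 21.8 CPM in control pools (median 17.1) and from 8.96 to 14.1 CPM in cKO pools (median 13.1). The groups overlapped, with 3 of 6 cKO pools below every control pool. Its log2 fold change was -0.47 with a standard error of 0.13 (adjusted p = 0.0420). The call remained in 3 of 12 fits, those without control replicate 1, control replicate 4 or cKO replicate 2, and in the other 9 the adjusted p reached up to 0.0955. In the 8 pools with low Xist the adjusted p was 0.112 (edgeR), with a log2 fold change of -0.42.

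Hoxc4 (chr15:103034395-103036852), at the anterior end of its cluster, ranged from 10.5 to 13.9 CPM in control pools (median 12.1) and from 7.60 to 10.6 CPM in cKO pools (median 9.28). In 5 of 6 cKO pools it lay below every control pool. The log2 fold change was -0.37 with a standard error of 0.10 (adjusted p = 0.0397). The call remained in 4 of 12 fits, those without control replicate 1, 2 or 4 or without cKO replicate 6, and the adjusted p reached up to 0.0883 in the other 8. In the 8 pools with low Xist the groups did not overlap, as in 14.6% of all genes with cKO pools below control pools, but the adjusted p was 0.0665 (log2 fold change -0.42).

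**Figure D3:**
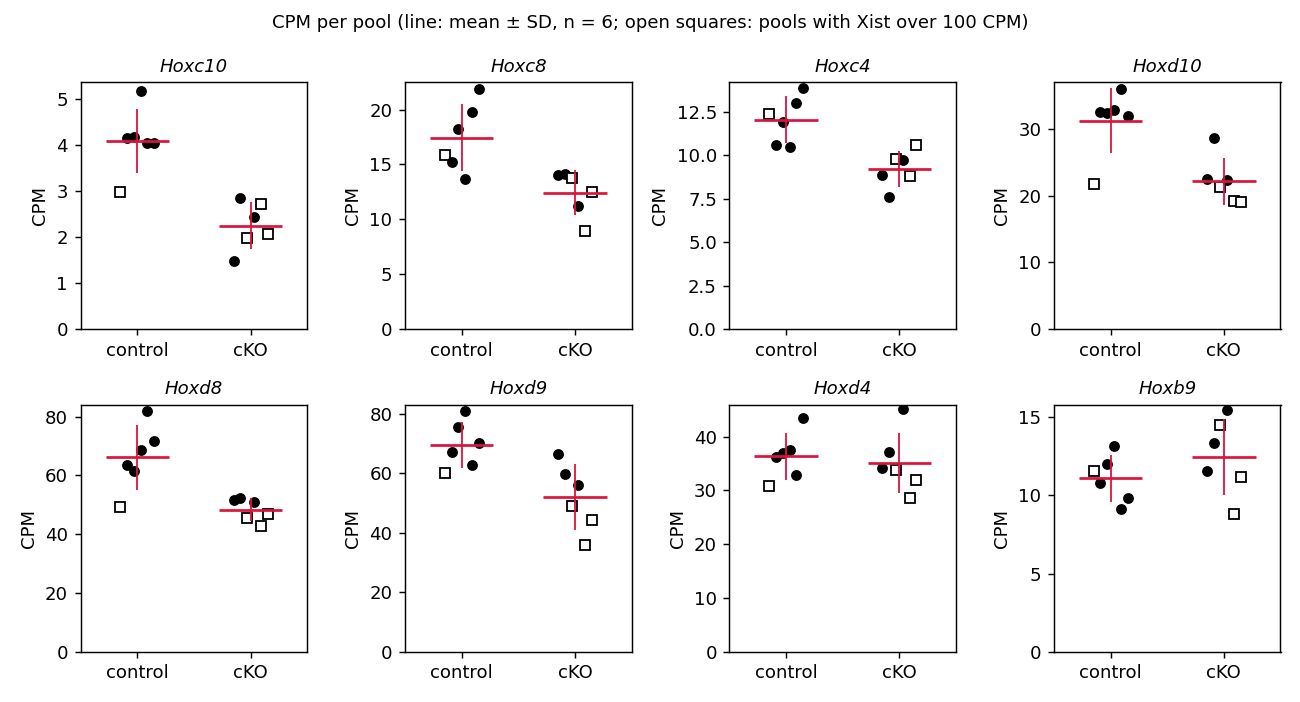
CPM of 8 Hox genes in each of 6 control and 6 cKO pools (points), with the mean and SD as red lines and all axes starting at 0. Open squares are the pools with Xist over 100 CPM. Only in Hoxc10 do the groups not overlap, and in Hoxd8 and Hoxd10 control replicate 1 is the control pool nearest to the cKO pools.

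Other central genes of the same clusters had fold changes closer to 0 over all 12 pools. Hoxd4 (chr2:74721978-74729160) had a mean of 36.3 ± 4.33 CPM in control and 35.1 ± 5.63 CPM in cKO pools (SD, n = 6 each). Its log2 fold change was -0.04, with an approximate 95% interval from -0.25 to 0.17 (adjusted p = 0.851). Hoxc5 had a mean of 11.7 ± 1.97 CPM in control and 11.2 ± 1.36 CPM in cKO pools, with a log2 fold change of -0.06 and an interval from -0.30 to 0.18. With low-Xist pools alone, Hoxc5 was at -0.23, as far from 0 as Hoxd9 there, and Hoxd4 was at 0.07. Hoxc6, the most abundant gene of HoxC, had 22.9 ± 2.52 and 20.9 ± 2.36 CPM, with a log2 fold change of -0.13 and an interval from -0.31 to 0.06.

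Among anterior genes, Hoxa3, a gene of pharyngeal arch development, gave 2.59 to 5.51 CPM in control and 2.25 to 3.47 CPM in cKO pools, and did not pass the test (log2 fold change -0.41 ± 0.18 SE, adjusted p = 0.179). Hoxd3 gave 21.0 to 32.8 CPM in control and 23.5 to 41.4 CPM in cKO pools, with a log2 fold change of 0.19 (adjusted p = 0.374). In the 8 pools with low Xist all cKO pools of Hoxd3 lay above all control pools, between 33.4 and 41.4 CPM against 25.4 and 32.8 CPM, but at a log2 fold change of 0.29 the threshold was not passed (adjusted p = 0.119). Hoxd1, at 0.453 to 0.893 CPM in control and 0.397 to 1.56 CPM in cKO pools, had a log2 fold change of 0.50 with a standard error of 0.30. Without cKO replicate 6 its fold change was 0.19, and with low-Xist pools alone 0.26. The transcribed interval of Hoxd3 contains Hoxd4, but their RefSeq-linked exons shared 0 bases.

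HoxA and HoxB hold the remaining genes. In HoxA, the log2 fold change of Hoxa5, the most abundant gene, was 0.02 ± 0.20 (SE), and the 8 genes tested ranged from -0.59 to 0.08. In HoxB, the 8 genes ranged from -0.10 to 0.32, and both extremes had standard errors above 0.2, with 0.24 for Hoxb7 and 0.28 for Hoxb8. Apart from Hoxb9, no HoxA or HoxB gene exceeded 6.73 CPM in any pool. Of the 29 genes, 4 had all cKO pools below all control pools among the 8 pools with low Xist (Hoxc4, Hoxc10, Hoxd8 and Hoxd10), and 1 had all above (Hoxd3). Of all genes tested, 14.6% and 13.7% were apart in the same way with 5 control and 3 cKO pools, so that neither count of members exceeded the background share.

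Ratios of genes within a pool do not depend on how libraries are scaled. A set of 3 was chosen after the fold changes had been seen, and they are given as descriptions without a test. The log2 ratio of Hoxd8 to Hoxd4 counts was 0.86 ± 0.24 in control and 0.47 ± 0.16 in cKO pools (SD, n = 6 each), and all 6 cKO pools lay below every control pool. For Hoxc4 to Hoxc5 the log2 ratio was 0.05 ± 0.19 and -0.27 ± 0.10, again with all 6 cKO pools below every control pool. There the groups all but touched, with the lowest control pool at -0.153 and the highest cKO pool at -0.156. For Hoxd8 to Hoxd4 these were 0.675 and 0.594. The share of gene pairs apart in this way was not computed. Between the paralogs Hoxd9 and Hoxb9 it was 2.65 ± 0.16 and 2.05 ± 0.27, with 5 of 6 cKO pools below every control pool. In the 8 pools with low Xist the differences were -0.47, -0.21 and -0.53.

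**Figure D4:**
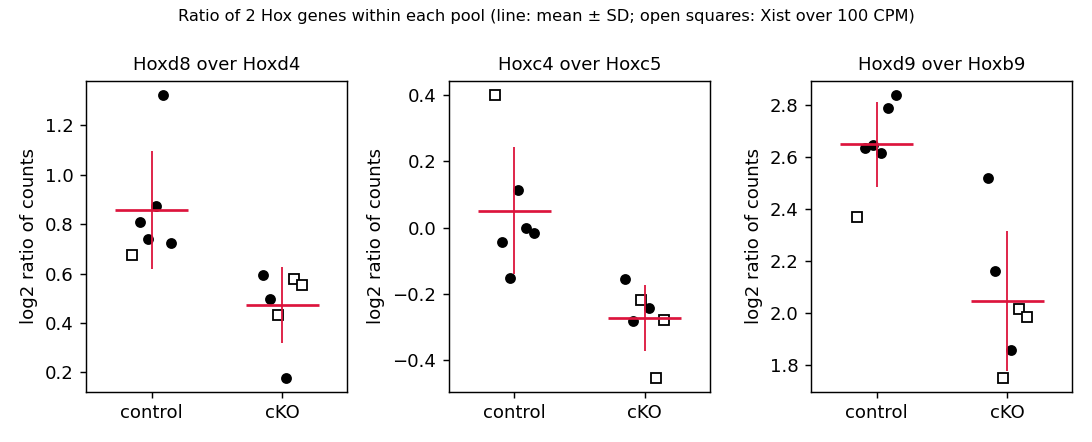
Log2 ratio of the counts of 2 Hox genes within each pool, for 6 control and 6 cKO pools (points), with the mean and SD as red lines and open squares for pools with Xist over 100 CPM. In the ratios of Hoxd8 to Hoxd4 and of Hoxc4 to Hoxc5 the 6 cKO pools lie below all control pools. For Hoxc4 to Hoxc5 the nearest pools all but touch, at -0.153 in control and -0.156 in cKO.

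The cofactors and regulators of Hox genes were listed separately. Of 9 TALE genes tested, 1 fell and 1 rose. Pknox2 had a mean of 85.0 ± 6.71 CPM in control and 58.0 ± 9.10 CPM in cKO pools (log2 fold change -0.55, adjusted p = 0.00325). Meis3 had 10.8 ± 1.71 and 15.3 ± 1.24 CPM (log2 fold change 0.51, adjusted p = 0.00858). Of 38 genes listed as regulators, which cover Polycomb and Trithorax proteins, Cdx factors, retinoic acid signalling and the genes Ctcf, Hnrnpk and Gdf11, 33 were tested, 0 fell and 1 rose, beside 4.85% and 3.28% of all genes, so that 1 gene is what the background share gives. That gene was Jarid2, a subunit of Polycomb repressive complexes, at 148 ± 15.2 CPM across control pools and 188 ± 8.90 CPM across cKO pools (log2 fold change 0.34, adjusted p = 0.0106). The Cdx genes, known activators of central Hox genes, were too low to test.

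Other transcripts inside or next to the clusters were read the same way, and 6 of 27 could be tested. Evx1, a homeobox gene at the posterior flank of HoxA, rose from 0.250 ± 0.141 to 0.791 ± 0.363 CPM (log2 fold change 1.34 ± 0.34 SE, adjusted p = 0.0272). The other 5 did not pass the test. They included Haglr, an antisense transcript beside Hoxd1 (log2 fold change -0.39), Mtx2, a mitochondrial gene at the anterior flank of HoxD (-0.21), and the long transcripts Mira in HoxA (-0.12) and Gm53 in HoxB (-0.07). The microRNA locus Mir196a-1 had 2.64 ± 0.711 and 2.68 ± 0.735 CPM, which in these libraries of long RNA is not a measure of the mature microRNA. Antisense transcripts were counted by strand.

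Markers of the cell types of the testis and of the adjoining mesonephros also differed between groups. The summed level of 7 interstitial markers ranged from 1157 to 1468 CPM in control and from 684 to 1221 CPM in cKO pools. Of these, 3 fell and Adam23 rose. The 3 were Nr2f2, the gene deleted by design, Tcf21 (log2 fold change -1.03, adjusted p = 0.000383) and Wnt5a (-0.64, adjusted p = 0.0241). Both Tcf21 and Wnt5a were lowest among control pools in control replicate 1 (133 and 255 CPM). Among cKO pools both were lowest in replicate 5 (51.2 and 125 CPM). Both of these pools had high Xist. For Nr2f2 the lowest control pool was replicate 5 (163 CPM), with low Xist. Without Nr2f2 the interstitial sum ranged from 988 to 1293 CPM in control and from 634 to 1102 CPM in cKO pools. All 3 contractile markers fell, with a sum of 524 to 640 CPM in control and 318 to 482 CPM in cKO pools. In fetal Leydig cells 3 of 4 markers fell, and their sum ranged from 1559 to 2905 CPM in control and from 841 to 1744 CPM in cKO pools. All sums here are over all 12 pools, and none was taken for the low-Xist pools alone. Control replicate 1 had the lowest Cyp17a1 of the control pools (523 CPM). Replicates 5 and 6 had the lowest of the cKO pools (204 and 240 CPM). These are pools with high Xist. Myh11 of the contractile list went the other way, highest among control pools in control replicate 1 (76.4 CPM) and lowest among cKO pools in replicate 4 (16.4 CPM). The mesonephric mesenchyme list had 0 of 3 past the test, with sums of 69.2 to 139 and 91.4 to 104 CPM. Of 9 markers of mesonephric duct and tubule epithelium, 7 were tested and 3 rose (Pax8, Ret and Lhx1), with sums of 59.3 to 107 CPM in control and 85.4 to 109 CPM in cKO pools. The Sertoli list, with 0 of 4 past the test, had sums of 424 to 884 and 498 to 885 CPM. In the lists of other cells, Csf1r of immune cells rose (log2 fold change 0.44, adjusted p = 0.00749), while Hbb-bs of blood (-0.47, adjusted p = 0.0307), Pdgfc of the testis surface epithelium (-0.57, adjusted p = 0.00749) and Wnt4 of the ovary list (-0.77, adjusted p = 0.0249) fell. These are single members of their lists. The immune list had 1 of 3 called, the blood list 1 of 3, the surface epithelium list 1 of 4 with 2 negative and 2 positive fold changes, and the ovary list 1 of 4 with the other 3 positive. The germ cell and endothelial lists had 0 of 3 past the test each. No marker was at 0 in all pools. The part of these cell types in the fall of the 5 Hox genes was not tested.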

How the data were processed

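RNA was taken from whole E14.5 testes, 3 per pool, in 6 control and 6 cKO pools. The authors trimmed reads with Trim Galore 0.6.7, aligned them to mm10 with STAR 2.5, and counted read pairs by strand with featureCounts (Subread 1.5.0-p1) on RefSeq Curated models. The deposited table holds raw counts per gene with no normalization.

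Genes were tested with edgeR 4.0.16 in R 4.3.3, using TMM scaling, glmQLFit and glmQLFTest without covariates, after filterByExpr (at least 10 counts, total at least 15). Benjamini-Hochberg adjustment covered all 15572 genes, and the threshold was 0.05. CPM used TMM-scaled library sizes. RPKM used the union of exons of RefSeq-linked transcripts, available for all 39 members. Standard errors are the fitted log2 fold change divided by the square root of F, and intervals assume a normal error. DESeq2 1.42.0, limma-voom (limma 3.58.1), other scalings and filters, a replicate block, Xist as a covariate and subsets of pools were alternatives. The authors used DESeq2 for their comparison.

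Named were members past the threshold, the 5 next by p-value, and the highest of each cluster, with called genes of the cofactor, regulator and neighbour lists. Fold changes of other members were added to complete clusters. Members and lists were chosen with earlier results of these data known. Depth set the precision for members at a few CPM or less. Within groups no pair of libraries agreed within sampling noise. All 12 libraries were used. Values of some low members are not reported here.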

Additional observations from a re-analysis of the deposited data

Results flagged for a closer look

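In 58 checks of the 29 Hox genes tested, each in 6 control and 6 cKO pools, 4 values from 3 pools stood apart from their group by Dixon's criterion, which chance meets in about 1 in 20 groups. Hoxd10 had 21.7 CPM in control replicate 1, against 32.0 to 35.9 CPM in the other control pools. Hoxd10 also had 28.7 CPM in cKO replicate 2, against 19.1 to 22.4 CPM in the other cKO pools. Control replicate 6 had 1.45 CPM of Hoxa6, against 0.471 to 0.732 CPM in the others. The same pool, the shallowest at 7044531 counts, had 3.33 CPM of Hoxb7, against 1.18 to 1.92 CPM in the others.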

How the results depend on the processing

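Of the 5 Hox genes that fell, Hoxc10 stayed past the threshold under all 11 other settings and all 12 fits that left out a pool, and no Hox gene was called higher in any of them. The count of 5, beside 4.85% of all genes called lower, became 3 with library size alone (beside 4.11%), 3 of 38 tested with no filter (3.18%), 8 of 38 tested by DESeq2 (4.93%), 3 in the pools with Xist under 100 CPM (3.39%), and 1 (Hoxc10) without the shallowest pool of each group, control replicate 6 and cKO replicate 5 (2.29%). RLE, upper quartile and the stricter filter gave 5, and limma-voom and the Xist covariate 4. Leaving out single pools gave 2 to 8 Hox genes called lower, with 8 without control replicate 1, where 10.5% of all genes were called lower. It gave 2 without control replicate 3, 5 or 6 or cKO replicate 3, 4 or 5 (beside 3.19% to 4.28% of all genes) and 3 without cKO replicate 1 or 6 (3.39% and 3.25%). Over all genes and in both directions, 1266 calls became 1919 by DESeq2 and 640 without the shallowest pool of each group, and 816 to 3106 with single pools left out, the highest without control replicate 1 and the lowest without cKO replicate 4. In the pools with low Xist 48.0% of called genes were lower, against 59.7% in all pools. The cause of these shifts was not tested.

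The correlations of deviations between pools of equal replicate number ran from -0.33 to 0.24. They had no common sign, but they cannot exclude shared litters, which the labels do not give. With a replicate block 931 genes were called, and the Hox genes called lower came to 1 of 29, Hoxc10, beside 3.46% of all genes called lower, a share close to that background.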
